A study of Rattus norvegicus with 7 samples.

Results

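Beta-catenin, encoded by Ctnnb1, carries the Wnt signal to the nucleus and also links cadherins to actin at cell junctions. In cells without a Wnt signal a cytoplasmic destruction complex keeps it scarce. The scaffolds Apc, Axin1 and Axin2 hold beta-catenin beside casein kinase 1 and the kinase encoded by Gsk3b. Casein kinase 1 places the priming phosphate, the Gsk3b product adds further phosphates, and the F-box protein encoded by Btrc then brings the marked protein to a ubiquitin ligase. In the cerebellum this pathway is known for its part in early patterning, in the growth of precursor cells and in the formation of synapses.

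The 10 genes described here are Ctnnb1, Apc, Axin1, Axin2, Gsk3b, Csnk1a1, Csnk1g1, Csnk1d, Csnk1e and Btrc. They were given by symbol and found on the array by RefSeq accession, which gave 13 of its 30367 probes and 10 of 11966 named genes measured. Csnk1d had 2 probes, Csnk1e 3 and each other gene 1. Transcripts were measured on 1-colour microarrays in cerebellar total RNA of female Wistar pups, aged 21 days. In the control group (CTRL, n = 4 pups) the dams ate a standard diet. In the deficient group (MDD, for methyl donor deficiency, n = 3 pups) their diet lacked vitamin B12 and folate and held less choline, nutrients that supply methyl groups. Both diets ran from 1 month before pregnancy to weaning at postnatal day 21, so deficiency covers the whole of gestation and suckling. The labels call the samples biological replicates and name no dam or litter, so the p-values rest on variation among pups, some of which may share a litter.

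Values are log2 intensities relative to the 75th percentile of the spots on the same array, so 0 marks that percentile. They are compared between groups for the same probe and not between probes. All 13 probes were well above background on all 7 arrays, and 0 of their spots were saturated or marked as outliers. The number of arrays limits the precision. Changes are MDD minus CTRL on the log2 scale, tested with limma over 19991 genes and unnamed probes with Benjamini-Hochberg adjustment, and a gene is said to be higher or lower when its adjusted p is under 0.05.

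The transcripts of 2 of the 10 genes were lower in MDD, and both encode casein kinase 1 isoforms. Csnk1g1 fell 2.16-fold and Csnk1a1 1.46-fold. All 3 MDD arrays lay in 1 row of the slide with a single control, so row and diet can hardly be told apart. With the row as a block the changes were -1.19 (SE 0.34) and -0.62 (SE 0.23). Neither passed there (limma adjusted p = 0.148 and 0.207). Of the other 8, the groups did not overlap for Apc, and Axin2 and Gsk3b had lower means with overlapping groups, none of them passing the adjustment. Ctnnb1 itself, Axin1, Csnk1d, Csnk1e and Btrc differed by less than the spread between pups allows to call. In bulk RNA, fewer cells of a type and less RNA per cell cannot be told apart. Among all genes and unnamed probes tested 20.4% were called, 7.72% lower and 12.7% higher, and among the 10 genes 2 were lower and 0 higher. At an unadjusted p under 0.05 limma gave 5 lower and 0 higher of 10, beside 18.3% and 20.5% of all tested (38.8% in either direction). The groups did not overlap for 3 of the 10, beside 36.5% of all tested. The mean was lower in MDD for 7 of the 10, beside 52.5% of all tested. Their median change was -0.33, against -0.03 for all tested.

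**Figure D1:**
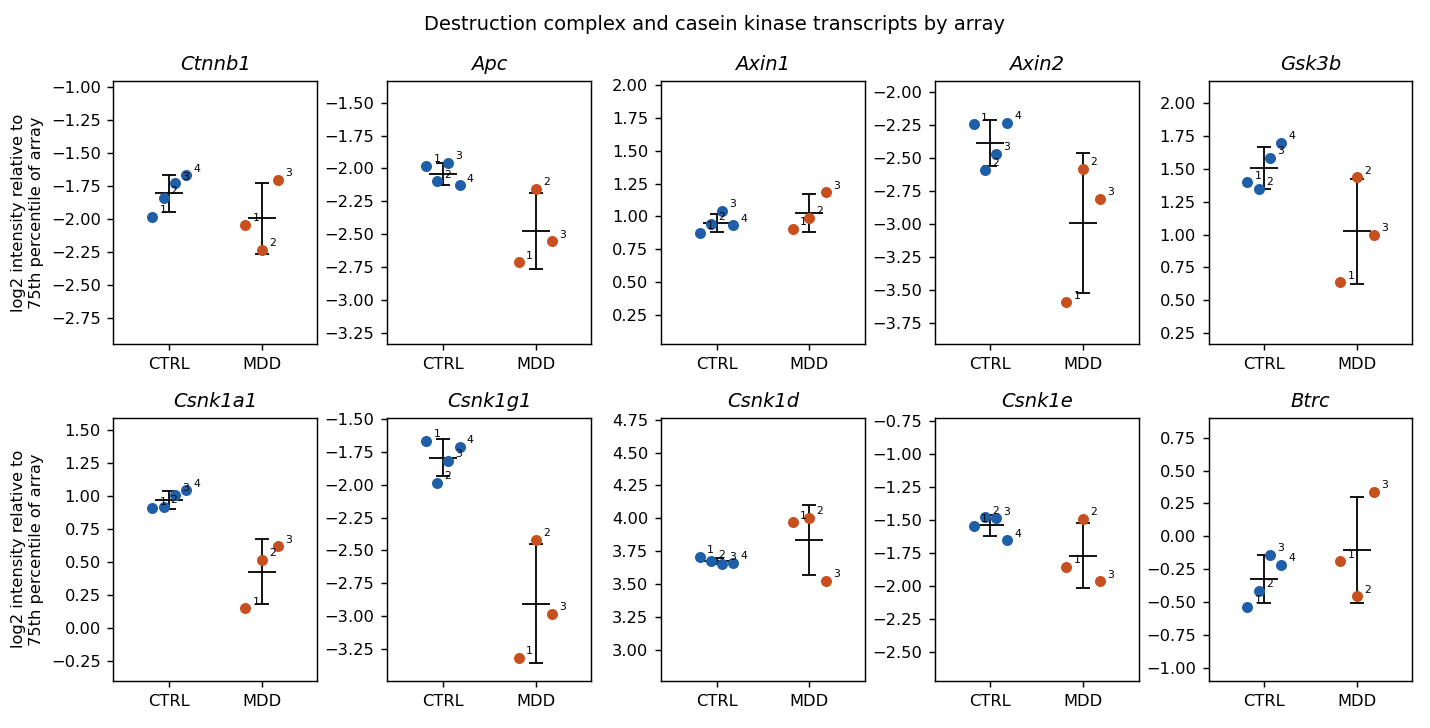
Level of each of the 10 genes on each array, as log2 intensity relative to the array's 75th percentile, with points numbered by replicate, and bars at the mean and 1 SD of 4 CTRL and 3 MDD pups. Each panel spans the same log2 range. For Csnk1g1, Csnk1a1 and Apc every MDD point lies below every CTRL point, and the MDD points are spread more widely than the CTRL points in all 10 panels, each of which shows the brightest probe.

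Ctnnb1, the substrate of the complex, stood at -1.98, -1.84, -1.73 and -1.67 in the 4 CTRL pups and at -2.05, -2.24 and -1.70 in the 3 MDD pups. MDD replicate 3 fell among the controls, and the groups overlapped. The change was -0.19 (SE 0.16, 95% confidence interval -0.55 to 0.17, adjusted p = 0.397 by limma). This interval excludes a rise of more than 0.17 or a fall of more than 0.55 on this scale, and the array does not measure the protein, whose amount the complex sets.

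Apc, the large tumour suppressor that binds beta-catenin and axin, stood at -1.98, -2.10, -1.96 and -2.13 in CTRL and at -2.71, -2.15 and -2.55 in MDD. All 3 MDD pups were below all 4 controls, though replicate 2 only just. Such separation towards lower values was seen for 16.4% of all tested. The change of -0.43 (SE 0.15, interval -0.78 to -0.08) had an adjusted p of 0.0763 by limma and did not pass. It passed in 1 of 18 alternatives, without MDD replicate 2 (-0.59, adjusted p = 0.0189). Without MDD replicate 1 the change was -0.31 (adjusted p = 0.187).

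The axins are the limiting scaffolds, and Axin2 is also a transcriptional target of beta-catenin, which makes it a feedback inhibitor. Axin1 stood at 0.88, 0.94, 1.04 and 0.93 in CTRL and at 0.91, 0.99 and 1.18 in MDD. The ranges overlapped and the change was 0.08 (SE 0.12, interval -0.19 to 0.35, adjusted p = 0.650), with its sign turned in 2 alternatives, the authors' deposited table and normexp with quantile normalization (-0.01 in each). Axin2 was at -2.24, -2.59, -2.47 and -2.23 in CTRL and at -3.60, -2.58 and -2.81 in MDD. MDD replicate 1 was far below all controls, while replicate 2 lay inside their range. The change of -0.61 (SE 0.24, interval -1.15 to -0.07) did not pass (adjusted p = 0.0959). It passed without MDD replicate 2 (-0.82, adjusted p = 0.0416) and shrank to -0.31 without MDD replicate 1 (adjusted p = 0.199). The spread between MDD pups was an SD of 0.14 for Axin1 and 0.53 for Axin2, the latter set mainly by replicate 1.

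Gsk3b, which encodes glycogen synthase kinase 3 beta, was printed as 10 spots on each array. Its levels were 1.40, 1.35, 1.58 and 1.70 in CTRL and 0.64, 1.44 and 0.999 in MDD. MDD replicates 1 and 3 were below all controls and replicate 2 lay among them. The change was -0.48 (SE 0.20, interval -0.93 to -0.04, adjusted p = 0.108 by limma). Without MDD replicate 2 it was -0.69 (adjusted p = 0.0263), and without replicate 1 it was -0.29 (adjusted p = 0.273). Within an array the spots of Gsk3b differed by an SD of at most 0.09.

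Casein kinase 1 alpha, the product of Csnk1a1, is the isoform that primes beta-catenin. Csnk1a1 stood at 0.91, 0.92, 1.01 and 1.05 in CTRL and at 0.15, 0.52 and 0.62 in MDD. The controls were close together and all 3 MDD pups lay below them, replicate 1 the furthest. The change was -0.54 (SE 0.14, interval -0.87 to -0.22, adjusted p = 0.0326 by limma), or 1.46-fold lower. The call did not hold without any 1 of the 4 CTRL replicates (adjusted p = 0.0637, 0.0686, 0.0813 and 0.0886 without replicates 1 to 4), without MDD replicate 1 (-0.40, adjusted p = 0.0680) or with slide row as a block (-0.62, adjusted p = 0.207). In the authors' deposited table, on a linear scale, its intensities were 2929, 3044, 3125 and 3295 in CTRL and 1770, 2245 and 2486 in MDD, again without overlap.

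Csnk1g1 encodes casein kinase 1 gamma 1, an isoform of the membrane-anchored gamma group, which is known to phosphorylate the Wnt co-receptor Lrp6. Its levels were -1.67, -1.99, -1.82 and -1.71 in CTRL and -3.32, -2.42 and -2.98 in MDD. Every MDD pup was below every control, and the nearest MDD pup, replicate 2, was still apart from the lowest control. The change of -1.11 (SE 0.21, interval -1.58 to -0.63, adjusted p = 0.0137 by limma) was lower than that of all but 1.17% of genes and probes tested. It kept an adjusted p under 0.05 when any single pup was left out, with changes from -0.90 without MDD replicate 1 to -1.35 without MDD replicate 2. With slide row as a block, which sets the MDD pups against CTRL replicate 4, it was -1.19 and did not pass (adjusted p = 0.148). The size was smaller in the authors' deposited table (-0.90), where intensities were 513, 470, 487 and 519.6 in CTRL and 222, 333 and 257 in MDD.

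Casein kinase 1 delta and epsilon, from Csnk1d and Csnk1e, act in Wnt signalling at dishevelled and are known for setting the period of the circadian clock. The brighter Csnk1d probe, A_64_P133904, was at 3.71, 3.67, 3.66 and 3.66 in CTRL and at 3.97, 4.00 and 3.53 in MDD. Of the MDD pups 2 were above the controls and replicate 3 below them. The change was 0.16 (SE 0.14, interval -0.17 to 0.48, adjusted p = 0.435), and its sign turned with quantile normalization (-0.20), with normexp and quantile normalization (-0.20) and in the authors' deposited table (-0.25), so no direction is given for it. The other Csnk1d probe, A_64_P133899, had a change of 0.04 (SE 0.12, adjusted p = 0.822 over all kept probes, of which 20.1% were called).

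The brightest Csnk1e probe, A_42_P515454, was at -1.54, -1.48, -1.49 and -1.65 in CTRL and at -1.86, -1.49 and -1.96 in MDD. Replicate 2 of MDD lay with the controls and the other 2 below them. The change was -0.23 (SE 0.14, interval -0.55 to 0.10, adjusted p = 0.262). Probe A_64_P040498 gave -0.21 (SE 0.16, adjusted p = 0.362) and probe A_64_P127944 gave 0.11 (SE 0.11, adjusted p = 0.488), both over all kept probes. The Csnk1e probes therefore did not share a sign, and the difference of 0.34 between the first and the last was not called (exact permutation p = 0.0571 over the 35 splits of the arrays, adjusted p = 0.0816 over 10 pairs).

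Whether the casein kinase 1 genes changed by the same amount was tested on their ratios, and no pair passed the adjusted test. The log2 ratio of Csnk1g1 to Csnk1d differed between the groups by -1.27, that of Csnk1g1 to Csnk1e by -0.88, that of Csnk1a1 to Csnk1d by -0.70, that of Csnk1a1 to Csnk1g1 by 0.56 and that of Csnk1d to Csnk1e by 0.39. In each of these 5 pairs the groups did not overlap, and the exact two-sided permutation test gave p = 0.0286, the smallest that the 35 splits allow. Adjusted over the 10 pairs compared, the exact test gave p = 0.0571. These 10 include the pairs of probes within Csnk1d and within Csnk1e. With so few splits the adjusted test could hardly pass, so it does not show that the genes changed alike. The ratio of Csnk1a1 to Csnk1e differed by -0.31 (exact permutation p = 0.200, adjusted p = 0.250). The ratios with Csnk1d rest on its brighter probe and those with Csnk1e on its brightest. They also rest on the scaling. With quantile normalization Csnk1d was at -0.20, Csnk1e at -0.17 and Csnk1a1 at -0.58. In the authors' deposited table they were at -0.25, -0.10 and -0.53. No direction is therefore given for the ratio of Csnk1d to Csnk1e, and Csnk1a1 and Csnk1d lay closer together there than in the main setting.

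Btrc encodes beta-TrCP1, the subunit that recognises phosphorylated beta-catenin. It was at -0.54, -0.41, -0.14 and -0.22 in CTRL and at -0.19, -0.46 and 0.34 in MDD. Replicate 3 of MDD was the highest of the 7 pups, and the others lay within the range of the controls. The change was 0.22 (SE 0.20, interval -0.23 to 0.68, adjusted p = 0.434), and it was 0.00 without MDD replicate 3.

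**Figure D2:**
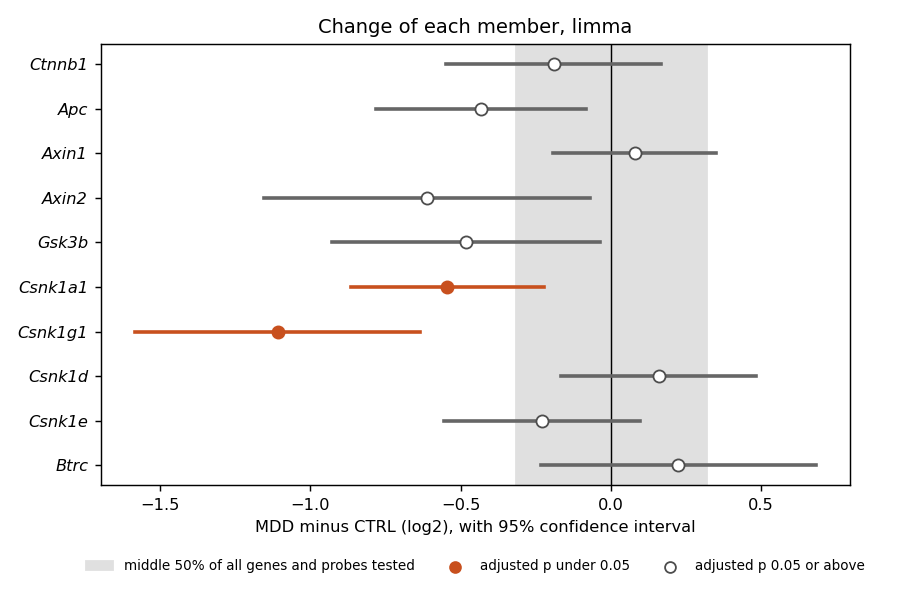
Change of each gene (MDD minus CTRL, log2) as points with 95% confidence intervals from limma, filled where the adjusted p is under 0.05. The grey band holds the middle 50% of all genes and probes tested, from -0.31 to 0.32. Csnk1g1 lies furthest to the left at -1.11, and the intervals of Csnk1a1, Apc, Axin2 and Gsk3b also exclude 0 before adjustment over all genes.

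Windows upstream of a start site are shown for the 2 called kinase genes, because the diet withholds methyl donors and DNA methylation of rat genes falls on the dinucleotide CG, and for Axin2, because it is a direct target of beta-catenin. They come from RefSeq promoter tables of the assembly GRCr8, which hold 8 of the 10 genes, without Axin1 and Csnk1d. Each table window has 300 bases, of which the 250 upstream are printed, 5′ to 3′. Capitals mark CG in the first 2 and the letters CTTTGAT, a core motif of Lef1 and related factors, in the third. All 3 lie on the plus strand, Csnk1g1 at chr8:75348364-75348613, Csnk1a1 at chr18:57287162-57287411 and Axin2 at chr10:94398535-94398784.
Csnk1g1: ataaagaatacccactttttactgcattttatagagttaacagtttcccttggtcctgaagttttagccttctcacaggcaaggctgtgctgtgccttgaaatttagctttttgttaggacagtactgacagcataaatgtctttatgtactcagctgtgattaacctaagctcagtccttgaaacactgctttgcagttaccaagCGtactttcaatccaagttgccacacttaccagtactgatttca
Csnk1a1: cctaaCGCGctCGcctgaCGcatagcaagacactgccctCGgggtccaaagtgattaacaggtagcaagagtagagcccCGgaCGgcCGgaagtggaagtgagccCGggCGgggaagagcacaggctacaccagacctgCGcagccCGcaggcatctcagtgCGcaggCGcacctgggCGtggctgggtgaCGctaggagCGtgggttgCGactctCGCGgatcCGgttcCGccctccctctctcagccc
Axin2: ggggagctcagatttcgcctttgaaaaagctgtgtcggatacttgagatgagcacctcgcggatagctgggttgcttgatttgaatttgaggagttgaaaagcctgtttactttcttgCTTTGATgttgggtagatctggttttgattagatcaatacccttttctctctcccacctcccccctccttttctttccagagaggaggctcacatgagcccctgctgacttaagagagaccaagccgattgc

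The 2 kinase genes that were called lower differ in these windows. Over all 300 bases Csnk1g1 held 1 CG and Csnk1a1 held 28, where the median of 33469 windows of this length was 7. Among the other genes Csnk1e held 36, Btrc 31, Ctnnb1 and Gsk3b 7 each, Axin2 5 and Apc 4. For 5 of the 8 genes the table's start lies more than 300 bases inside the outermost start of the gene, among them Csnk1g1, Csnk1a1 and Axin2, so these windows need not be the promoter used in cerebellum. CTTTGAT, searched on both strands, was found in the window of 1 of the 8 genes, Axin2, at position -132 from the start, and in 3.63% of all windows. No methylation was measured here.

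The rest of the pathway was read from lists of genes around the complex. Of 5 other casein kinase genes 0 passed in either direction by limma, nor at an unadjusted p under 0.05. The paralogs of Csnk1g1 did not pass, with Csnk1g3 at -0.44 (SE 0.23, adjusted p = 0.192) and Csnk1g2 at 0.23 (SE 0.12, adjusted p = 0.202), of which Csnk1g2 was picked after its value was seen, as the last gamma isoform. Csnk2b, the regulatory subunit of casein kinase 2, had a change of 0.32 (SE 0.17, adjusted p = 0.197), which was 0.08 with quantile normalization, 0.06 in the authors' deposited table and -0.06 with the trend over length and brightness removed, so no direction is given for it. The median of these 5 was 0.00.

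Of 7 measured genes for other scaffolds, the second GSK3 kinase, tankyrases and their partners 0 passed (1 higher and 2 lower at an unadjusted p under 0.05 by limma, median -0.19). Tnks2, a tankyrase that marks axin for destruction, averaged -0.49 ± 0.21 over the 4 controls (SD) and -1.30 ± 0.63 over the 3 MDD pups without overlap (change -0.80, limma adjusted p = 0.0698, with -0.29 by the other probe). Apc2, the paralog of Apc found mainly in neurons, had a change of -0.48 (SE 0.18, adjusted p = 0.0869) by its brighter probe and 0.14 by the other. The brighter probe passed with quantile normalization (-0.83, adjusted p = 0.0250), with normexp and quantile normalization (-0.84, adjusted p = 0.0114) and in the authors' deposited table (-0.90, adjusted p = 0.0136), so its call rests on the scaling. Of 9 genes of protein phosphatase 2A, which removes phosphate in the complex, 0 passed (0 higher and 1 lower unadjusted, median -0.02). The regulatory subunit gene Ppp2r2a had a change of -0.73 (SE 0.23, adjusted p = 0.0564) and Ppp2r5b one of 0.25 (SE 0.12, adjusted p = 0.160).

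The list of ubiquitin genes holds the partners of Btrc in its ligase, the separate ligase genes Siah1 and Siah2, and deubiquitinase genes. Of 8 measured 2 were higher and 4 lower, with a median of -0.41, beside 12.7% higher and 7.72% lower of all tested. The counts were 1 higher and 2 lower with quantile normalization and also in the authors' deposited table. With the trend over length and brightness removed they were 0 higher and 1 lower. In the main setting the 2 higher genes and 1 of the 4 lower ones, Cul1, belong with the ligase of Btrc. Cul1, the cullin backbone of the ligase, fell from 0.81 ± 0.03 (SD, n = 4) to 0.39 ± 0.03 (SD, n = 3), a change of -0.42 (limma adjusted p = 0.0286). Rbx1, the RING subunit that binds Cul1, was higher by 0.72 (SE 0.15, adjusted p = 0.0174), and Nedd8, the ubiquitin-like protein that activates cullins, by 0.70 (SE 0.12, adjusted p = 0.0113). Skp1, the adaptor between Cul1 and Btrc, was at -0.14 (SE 0.16, adjusted p = 0.539), a gene picked to complete the ligase after its value was seen. Siah2, which encodes a ligase that works without Btrc, had a change of -0.65 (adjusted p = 0.0338). The other lower genes were Siah1 (-0.40, limma adjusted p = 0.0374) and the deubiquitinase gene Usp9x (-0.58, adjusted p = 0.0371). Both are outside the rule for naming and were picked after their values were seen. Nedd8 did not pass with quantile normalization (0.22, adjusted p = 0.152) or in the authors' deposited table (0.23, adjusted p = 0.0983), so its size rests on the scaling. Neither did Siah2 (-0.51, adjusted p = 0.102 and -0.32, adjusted p = 0.155). Leaving out single pups ended the call of Cul1 without CTRL replicates 1 to 4 and MDD replicate 1 (adjusted p = 0.0593 to 0.0834), and of Siah2 in those same cases and without MDD replicate 3 (adjusted p = 0.0532 to 0.0846). Rbx1 lost it without CTRL replicates 3 and 4 (adjusted p = 0.0509 and 0.0584).

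Upstream, 1 of 11 measured receptor and dishevelled genes was higher and 2 lower, with a median of -0.02. They were Fzd2 at 0.64, Fzd3 at -0.47 and Dvl3 at -0.59, a dishevelled gene whose protein inhibits the complex once a receptor is engaged. Fzd2 did not pass without any 1 of the controls or MDD replicates 1 or 3 (adjusted p = 0.0545 to 0.0770), Fzd3 without any 1 of the controls or MDD replicate 1 (0.0700 to 0.0997), and Dvl3 without any 1 of the controls or MDD replicates 1 or 2 (0.0535 to 0.0813). Dvl3 also did not pass with quantile normalization (-0.45, adjusted p = 0.0524) or in the authors' deposited table (-0.26, adjusted p = 0.101). Of 9 nuclear partners of beta-catenin 0 were higher and 2 lower, with a median of -0.23 (0 higher and 4 lower at an unadjusted p under 0.05). Lef1, which carries beta-catenin on DNA, averaged -3.28 ± 0.07 over the 4 controls (SD) and -3.82 ± 0.03 over the 3 MDD pups (adjusted p = 0.0157 by limma). Its other probe gave -0.30, and in the authors' deposited table the change was -0.25 (adjusted p = 0.0772). It also did not pass without CTRL replicate 3 or 4 (adjusted p = 0.0518 and 0.0564). The co-repressor gene Tle4 had a change of -0.59 (SE 0.14, adjusted p = 0.0269), which did not pass without any 1 of the controls or MDD replicate 1 (0.0555 to 0.0699) or in the authors' deposited table (-0.15, adjusted p = 0.317).

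Of 7 genes for the cadherins and catenins that hold beta-catenin at junctions 1 was lower and 0 higher, with a median of -0.30. This was Cdh2, N-cadherin, which averaged -1.18 ± 0.23 over the 4 controls (SD) and -1.92 ± 0.34 over the 3 MDD pups (change -0.74, limma adjusted p = 0.0339, and 0.0756 to 0.0899 without CTRL replicates 2, 3 or 4 or MDD replicate 1). Of 9 target genes of beta-catenin other than Axin2, 1 was higher and 2 lower, with a median of -0.29. Birc5, an inhibitor of apoptosis, was at 0.45, and Lgr5, a receptor of stem cells, at -0.94, well above background on 2 of 3 MDD arrays. Birc5 did not pass without CTRL replicates 2, 3 or 4 or any MDD replicate (adjusted p = 0.0587 to 0.112), and Lgr5 without any 1 of the controls or MDD replicates 1 or 3 (up to 0.0741). In the authors' deposited table Lgr5 was at -0.52. Lef1 is the other lower gene and is counted in both lists. Of 6 clock genes whose proteins meet casein kinase 1 delta and epsilon 0 passed (0 higher and 1 lower unadjusted, median 0.00), with Cry1 at -0.36 (SE 0.12, adjusted p = 0.0613).

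**Figure D3:**
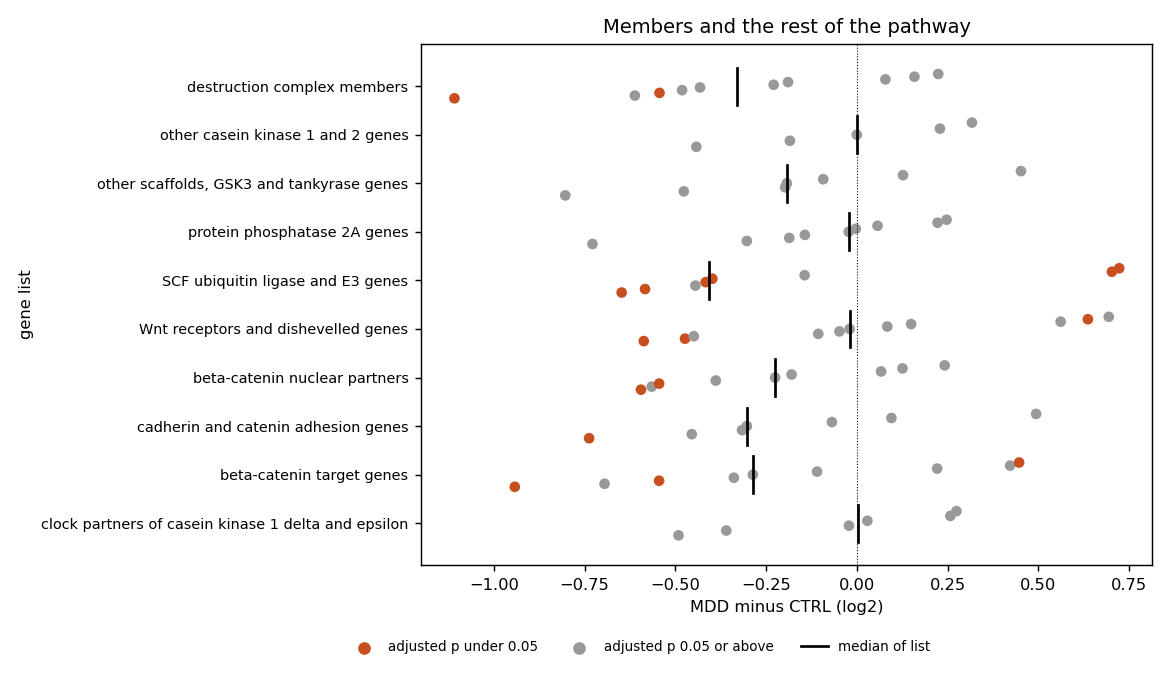
Change of each measured gene (MDD minus CTRL, log2) in the 10 genes of the complex and in 9 lists around it, coloured where the limma adjusted p is under 0.05, with a bar at each list's median. The genes of the complex have a median of -0.33 and the ubiquitin ligase list holds coloured points on both sides, at most 0.72 to the right and -0.65 to the left.

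Gene length was a further feature examined for the 10 genes. All 10 are longer than the median named gene, which spans 20850 bases from start to end in RefSeq. Over the 11966 named genes, which are not independent replicates, length and change had a rank correlation (Spearman) of -0.40, so long genes tended to have lower values in MDD. After a smooth trend over length and brightness had been taken out of every array, Csnk1g1 was at -0.86 (adjusted p = 0.0287) and Csnk1a1 at -0.52 (adjusted p = 0.0485), and both were still called. There 4.78% of named genes were called lower. The changes of Apc (-0.25, adjusted p = 0.211) and Gsk3b (-0.35, adjusted p = 0.207) were smaller than before removal, and that of Axin2 was -0.49 (adjusted p = 0.151). Rbx1 (0.45), Nedd8 (0.29), Cul1 (-0.29), Siah2 (-0.60), Lef1 (-0.27), Tle4 (-0.27), Cdh2 (-0.48), Fzd2 (0.50), Fzd3 (-0.28), Birc5 (0.38) and Lgr5 (-0.61) did not pass after removal (adjusted p = 0.0580 to 0.211), while Dvl3 (-0.53) did (adjusted p = 0.0374) and Apc2 (-0.70) came to pass (adjusted p = 0.0472).

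Spread was the other feature examined. The SD was larger in MDD than in CTRL for 10 of the 10 genes, beside 72.3% of all genes and probes tested. This is for the brightest probe of each gene, and the other Csnk1d probe, A_64_P133899, had the smaller SD in MDD (0.04 against 0.13 in CTRL). Relative to the CTRL means the median over the 10 genes was -0.49 in MDD replicate 1, -0.12 in replicate 2 and -0.39 in replicate 3, and between -0.05 and 0.08 in the controls. Replicate 1 was the lowest MDD pup for 6 of the 10. Over all genes tested, the median size of the deviation from the CTRL mean was also smallest in replicate 2 of the MDD pups (0.24, against 0.37 and 0.41). Without replicate 2, 5 of the 10 genes were called lower, namely Csnk1g1, Csnk1a1, Apc, Axin2 and Gsk3b, and the genes called lower among all tested rose from 1543 to 2328.

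The 3 genes of smallest p were compared with all named genes by the root mean square difference of centred log2 profiles over the 7 arrays. Closest to Csnk1g1 were Atp13a3 (0.11, change -1.18), Arl13b (0.11, change -1.05) and Gpcpd1 (0.12, change -1.10). Atp13a3 was at -0.37 in the authors' deposited table and at -0.28 with normexp and the 75th percentile, where it did not pass (adjusted p = 0.257), and it was not well above background on all 7 arrays. Arl13b was at -0.69 in the deposited table and Gpcpd1 at -1.04. Closest to Csnk1a1 were Usp14 (0.04), Tmpo (0.04) and Zc4h2 (0.05), with changes from -0.55 to -0.49. Closest to Apc were Ankhd1, Mef2a and St8sia3 (each 0.05), with changes from -0.51 to -0.47.

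**Figure D4:**
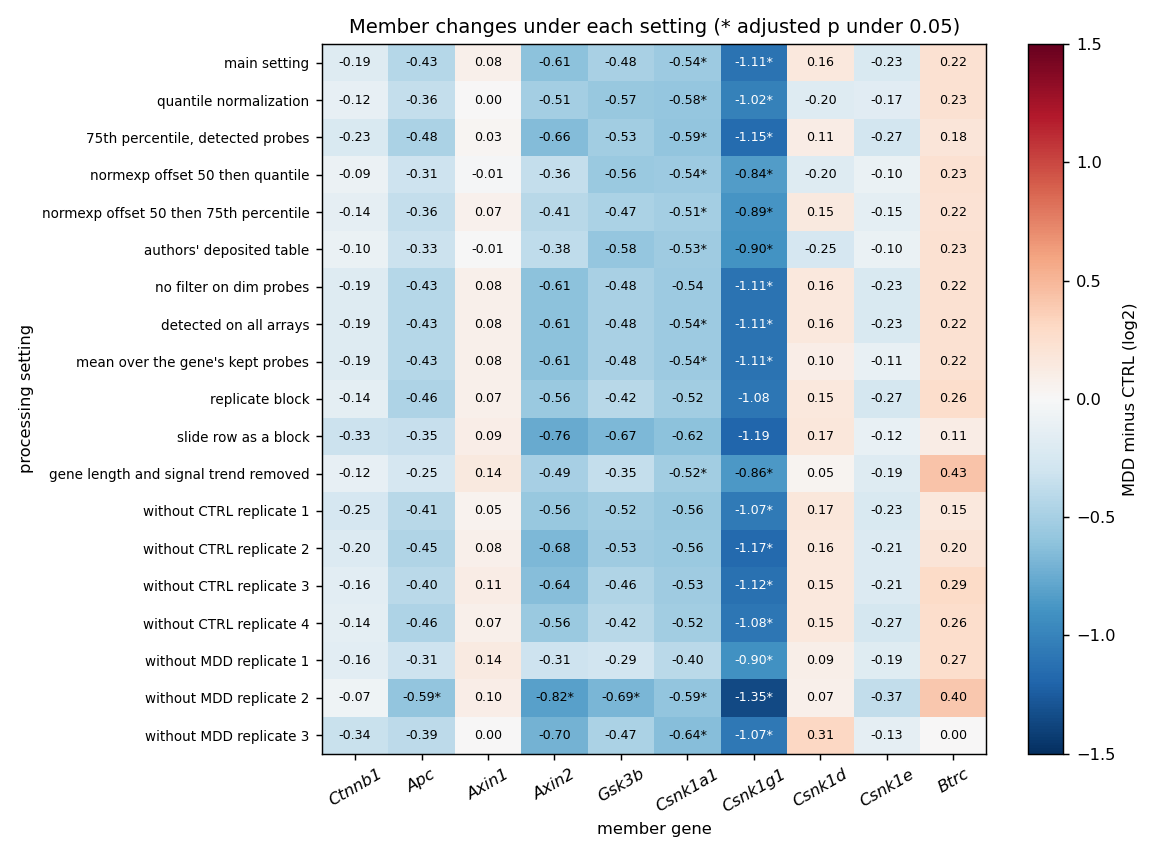
Change of each gene (MDD minus CTRL, log2) in the main setting and in 18 alternatives, as colour and number, with a star where the limma adjusted p is under 0.05. Csnk1g1 is starred in 16 of the 18 alternatives and Csnk1a1 in 10, and 7 genes keep 1 sign in the lower direction throughout.

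Tissue makeup was checked with marker genes, and the summed levels of each list are given on the log2 scale. Each sum is of linear intensities, so the brightest probes weigh most in it. Detection does not single out a cell type, as 9 of 9 Purkinje cell and 9 of 9 oligodendrocyte markers were well above background on all arrays. The same held for 11 of 11 granule neuron markers, among them Gabra6. Of these 1 was higher and 3 lower, including Gabra6 (-0.74) and Pax6 (-0.45). The mean was lower in MDD for 8 of the 11, with a median change of -0.35. With quantile normalization the counts were 0 higher and 4 lower (median -0.37). In the authors' deposited table they were 0 higher and 5 lower (median -0.34). The summed level of the 11 ranged from 6.59 to 6.74 in CTRL and from 6.57 to 6.84 in MDD. Of 9 microglial markers 6 were higher, such as Trem2 (1.13), and 1 lower, Cx3cr1 (-0.89), and their summed level ranged from 3.19 to 3.29 in CTRL and from 3.70 to 4.17 in MDD. The summed levels of 9 Purkinje cell markers ran from 7.63 to 7.81 in CTRL and 7.81 to 8.13 in MDD (2 higher, Slc1a6 at 0.74 among them, and 3 lower, with a median of -0.04). The Purkinje counts moved with the scaling, to 0 higher and 3 lower with quantile normalization (median -0.41, Slc1a6 at an adjusted p of 0.0520) and 1 higher and 4 lower in the authors' deposited table (median -0.47). Of 7 astrocyte and Bergmann glia markers 1 was higher, Aldh1l1 (0.51), and of 7 endothelial markers 1 was higher, Cldn5 (0.68). Of 9 oligodendrocyte markers 1 was lower, Mobp, at -0.57 by its brighter probe and -0.05 by the other. With the mean over its kept probes Mobp was at -0.31 and did not pass (limma adjusted p = 0.0916). Of 9 choroid plexus and meningeal and 4 blood cell markers 0 were called by limma (3 and 0 higher, 1 and 1 lower at an unadjusted p under 0.05). The smallest p were those of Lum (-0.53) and Otx2 (0.47), and of Ptprc (-0.49) and Hbb (0.81). Ptprc was well above background on 2 of 3 MDD arrays. In the authors' deposited table Ptprc was at -0.10 and Hbb at 0.31. Ttr (0.72) and Folr1 (1.25), picked after their values were seen, also had an unadjusted p under 0.05 by limma. Both lay above all controls in MDD replicates 1 and 3 but not in replicate 2. Of the 9 choroid plexus and meningeal markers 2 had lower means in MDD. Summed levels in CTRL and MDD ran from 6.33 to 6.49 and 6.30 to 6.58 for astrocytes, from 7.99 to 8.09 and 7.90 to 8.53 for oligodendrocytes and from 2.43 to 2.81 and 2.73 to 2.92 for endothelium. They ran from 6.71 to 7.16 and 6.97 to 8.15 for choroid plexus and meninges, and from 4.99 to 5.79 and 5.51 to 7.15 for blood. Trem2 and Cx3cr1 passed whichever pup was left out, and the other marker genes named as called each lost the call without 2 to 6 of the 7 pups. The part of other cell types in the changes of the 10 genes was not tested. The 3 markers not measured were Skor2, Sox9 and Hba1.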

How the data were processed

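RNA of 7 cerebella was hybridised to Agilent arrays of design 028279 and read with Feature Extraction 10.7.3.1 on an rn4 grid, per the file headers. The deposited scanner tables hold spot intensities, background-subtracted and detrended, and 0 or 1 flags. The authors' deposited normalized table also holds linear intensities. How it was normalized is not given in these sources, and it follows the raw median signal (correlation 0.99999 over 30367 probes), with column medians of 311.2 to 318.8. Groups are those of the sample titles.

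Processed signals were set to log2 minus each array's 75th percentile (1140 to 2105 intensity units) and averaged per probe without outlier spots. Of the probes, 22255 exceeded background clearly (scanner flag) on 3 or more of the 7 arrays and were kept. Symbols came from RefSeq (GRCr8) by accession, which named 18355 probes, and the brightest probe stood for a gene. limma 3.58.1 in R 4.3.3 tested groups (5 residual degrees of freedom). Its code was tested on simulated data. All arrays carry 1 slide and 1 scan time.

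The genes and lists were chosen with earlier results of these data known. By rule the text names the 10 genes, up to 4 passing genes per list by smallest p (2 per marker list), or the 2 of smallest p where none passed, and the 3 most similar profiles. Scanner tables hold no mean spot signal, so normexp used the median. Alternatives were other scalings, background correction, filters, probe rules, the deposited table, blocks for replicate number and slide row, removal of the trend with length and signal by a smooth fit (mgcv), and leaving out each pup. Some results that the rule would name are not reported here.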

Additional observations from a re-analysis of the deposited data

Results flagged for a closer look

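Among the 13 probes, CTRL replicate 2 stood apart from the other controls on the Csnk1e probe A_64_P127944, at -2.39 against -2.51 to -2.52 in the others, a gap of 0.893 of the range of the 4 controls. Chance sets apart about 1 in 20 groups in this way, and 1 of 13 probes was. The 3 MDD pups were not examined for this, being too few.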

How the results depend on the processing

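Csnk1g1 had a lower mean in all 18 alternatives (-1.35 to -0.84) and an adjusted p under 0.05 in 16, and Csnk1a1 a lower mean in all 18 (-0.64 to -0.40) and an adjusted p under 0.05 in 10. Leaving out single pups changed the number of the 10 genes called lower to 1 to 5, of all genes called higher to 779 to 2904 (2534 in the main setting) and lower to 213 to 2328 (1543). Without a filter on dim probes 1205 were higher, 388 lower and 1 of the 10 genes lower (Csnk1a1 at an adjusted p of 0.0712). With the trend with length and signal removed 806 named genes were higher and 572 lower, fewer genes being tested. With normexp and the 75th percentile 880 were lower, and 72.7% of calls were higher against 62.2% in the main setting. A block for replicate number gives CTRL replicate 4 no weight in the changes, as no MDD pup has that number. With this block limma called 0 higher, 0 lower and 0 of the 10 genes, and 3486, 2669 and 2 at an unadjusted p under 0.05. Csnk1g1 was at -1.08 (adjusted p = 0.0700) and Csnk1a1 at -0.52 (adjusted p = 0.111). Same-numbered pups had correlations of deviations of 0.09, -0.17 and 0.22, and only replicate 3 correlated best with its own number (0.22 against -0.06). The labels do not call the number a pairing, and so few values cannot settle whether it is one. Row 1 of the slide held CTRL replicates 1 to 3 and row 2 CTRL replicate 4 with all MDD pups. With the row as a block, which compares MDD with CTRL replicate 4 alone, 0 were higher, 2 lower and 0 of the 10 genes called, against 2630, 1437 and 2 at an unadjusted p under 0.05. Csnk1g1 was at -1.19 (adjusted p = 0.148) and Csnk1a1 at -0.62 (adjusted p = 0.207). Row and diet can therefore be told apart by 1 control only. The median of the 10 genes stayed below 0 in all 18 alternatives (-0.48 to -0.22). No scaling moved the median of all genes by over 0.1. The cause of the other moves was not tested.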
